A study of Homo sapiens with 5 samples.

Results

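The histone deacetylases (HDACs) are a family of enzymes that remove acetyl groups from lysines, and 9 of their genes were followed here across the knockdown of 2 transcription factors. The members were HDAC1, HDAC2, HDAC3, HDAC4, HDAC5, HDAC6, HDAC7, HDAC8 and HDAC11, taken by name from the 11 HDAC-numbered symbols among the 20030 symbols of each table. They were chosen by family membership, and HDAC1 and HDAC2 are known to bind the transcription factors SP1 and SP3. Their transcripts were measured by RNA sequencing in HCT116 cells, a line from a human colorectal carcinoma. Cells of 1 library each received siRNA against SP1, against SP3 or against both, and those of 2 libraries (control 1 and control 2) a control siRNA. Small interfering RNAs of this kind direct the breakdown of a matching transcript. The labels do not give the siRNA sequences, doses or times, nor whether the controls came from separate cultures.

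Acetylated lysines on histone tails loosen chromatin and attract reader proteins, and deacetylases reverse this, so that they act mostly as corepressors of transcription. Class I enzymes (HDAC1, HDAC2, HDAC3 and HDAC8) are largely nuclear. HDAC1 and HDAC2 work as the catalytic core of the Sin3, NuRD and CoREST complexes, and HDAC3 works in the NCoR complex. Class IIa enzymes (HDAC4, HDAC5 and HDAC7) have little deacetylase activity of their own, shuttle between nucleus and cytoplasm with 14-3-3 proteins, and hold down MEF2 factors. HDAC6, of class IIb, deacetylates tubulin in the cytoplasm, and HDAC11 is the single class IV enzyme. SP1 and SP3 are zinc finger factors that bind GC-rich promoter sites and recruit both coactivators and deacetylases.

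The libraries held 14678068 to 15970519 counted reads, read back from the steps of the deposited FPKM values (FPKM divides a gene's fragments by transcript length and by library depth). SP1 stood at 15.8 FPKM with the SP1 siRNA and at 16.1 FPKM with both siRNAs, against 36.9 ± 0.400 FPKM in the controls (SD, n = 2), and SP3 at 5.42 FPKM with the SP3 siRNA and 6.67 FPKM with both, against 13.1 ± 0.188 FPKM. SP1 was lower with the SP3 siRNA too, at 27.5 FPKM. The 8 epithelial markers were above 1 FPKM in every library, as fits the labelled line. Their levels differed, with KRT18, CLDN3, CLDN4 and CDH1 below both controls in each knockdown, CLDN7 above them, and the others mixed. KRT18 stood at 408, 284 and 153.5 FPKM in the SP1, SP3 and double knockdown libraries, against 750 and 740 FPKM. In every library 1 of 5 fibroblast markers (COL1A1) and 0 of 3 endothelial markers reached 1 FPKM. Of 6 leukocyte markers, 1 reached 1 FPKM in each knockdown library and 4 did in each control. CD68 was the one above 1 FPKM in the knockdowns, and the most abundant of the others, LYZ, stood at 0.258, 0.124 and 0.0449 FPKM in the SP1, SP3 and double knockdown libraries, against 11.2 and 12.2 FPKM in the controls. The summed level of the leukocyte list was 56.6 to 94.2 FPKM in the knockdowns and 74.7 to 77.8 FPKM in the controls, most of it CD68. The other 5 markers summed to 0.422, 0.133 and 0.196 FPKM in the SP1, SP3 and double knockdown libraries, against 15.9 and 16.1 FPKM in the controls, and TYROBP and CD3E were at 0 in all 3 knockdowns and above 0 in both controls. The source of these leukocyte transcripts, and their part in the HDAC values, were not tested. Their split runs between the controls and all 3 knockdowns, so it cannot be separated from the comparisons with the controls. In such bulk samples, fewer cells of a type and less RNA per cell cannot be told apart.

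**Figure D1:**
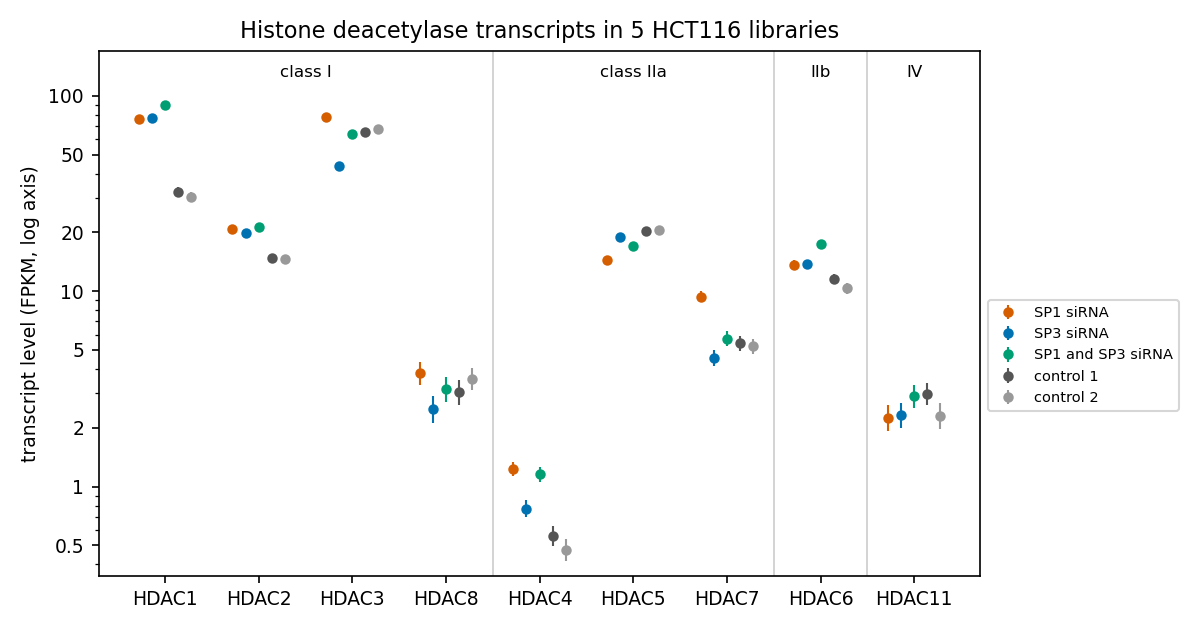
Level of each HDAC transcript in each library (FPKM, log axis), grouped by class, with points for the SP1 siRNA, SP3 siRNA and double knockdown libraries followed by the controls, and bars for the 95% Poisson counting interval. HDAC1 lies at 75.7 to 90.2 FPKM in the knockdowns and at 30.4 to 32.2 FPKM in the controls, while HDAC11 lies at 2.24 to 2.99 FPKM throughout.

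In control cells, HDAC3 was the most abundant member at 66.5 ± 2.07 FPKM (SD, n = 2), followed by HDAC1 at 31.3 ± 1.21 FPKM. HDAC5 (20.4 ± 0.251 FPKM), HDAC2 (14.7 ± 0.123 FPKM), HDAC6 (10.9 ± 0.852 FPKM) and HDAC7 (5.33 ± 0.134 FPKM) came next. HDAC8 (3.30 ± 0.370 FPKM) and HDAC11 (2.65 ± 0.481 FPKM) followed, and this pair of neighbours did not differ beyond its spread, with 3.04 and 2.99 FPKM in control 1. HDAC4 was lowest at 0.516 ± 0.0618 FPKM. The other neighbours in that order differed by more than the spread of the controls. HDAC4's FPKM depends on the length its reads were divided by. The smallest length compatible with whole reads throughout the 5 libraries was 31553 bases, against 8990 bases for its longest transcript in GENCODE 29, so its level per base of that transcript would be higher than its FPKM.

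Set among the 10899 genes with a control mean of at least 1 FPKM, HDAC3 lay at percentile 92.9, HDAC1 at 84.5, HDAC5 at 76.6, HDAC2 at 68.1 and HDAC6 at 59.6, and HDAC8 and HDAC11 at 23.24 and 18.03. The order changed at the top with the siRNAs. HDAC1 passed HDAC3 in the SP3 siRNA library (77.0 and 43.8 FPKM) and in the double knockdown (90.2 and 63.5 FPKM). With the SP1 siRNA the pair lay at 75.7 FPKM for HDAC1 (95% Poisson interval 72.9 to 78.5) and 78.2 FPKM for HDAC3 (75.3 to 81.2), which overlap. HDAC5, which stood above HDAC2 in both controls, stood below it in each knockdown library.

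HDAC1, the best known partner of SP1 and SP3 among these enzymes, was higher in every knockdown library. It had 75.7 FPKM with the SP1 siRNA, 77.0 FPKM with the SP3 siRNA and 90.2 FPKM with both, against 32.2 and 30.4 FPKM in the controls. The 3 knockdown values did not overlap those of the controls, and the counted reads numbered 2882, 3050 and 3284, against 1251 and 1201. Relative to the mean of the controls this was 2.42-fold with the SP1 siRNA (95% counting interval 2.29 to 2.55), 2.46-fold with the SP3 siRNA (2.33 to 2.60) and 2.88-fold with both (2.73 to 3.04). The log2(FPKM + 1) differences were 1.247, 1.272 and 1.498, each ± 0.07 SE (limma adjusted p = 5.05e-10, 5.11e-10 and 8.06e-11). Their percentiles among the 11728 tested genes were 98.03, 98.85 and 99.24. Counting intervals here cover counting error only. The comparisons share their controls, so these are not separate pieces of evidence.

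HDAC2, the close paralogue of HDAC1 in the same complexes, rose in all 3 comparisons by a smaller ratio. It had 20.8 FPKM with the SP1 siRNA, 19.9 FPKM with the SP3 siRNA and 21.3 FPKM with both, against 14.8 and 14.6 FPKM in the controls. Again no knockdown value overlapped the controls, whose ratio to each other was 0.988 (0.922 to 1.06). The rise was 1.42-fold (1.34 to 1.499), 1.36-fold (1.28 to 1.43) and 1.45-fold (1.37 to 1.53), with log2 differences of 0.48, 0.42 and 0.51, each ± 0.08 SE (limma adjusted p = 6.92e-05, 0.000273 and 4.31e-05). The level of HDAC1 relative to HDAC2 was 3.63 with the SP1 siRNA, 3.87 with the SP3 siRNA and 4.24 with both, against 2.18 and 2.09 in the controls.

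HDAC3 differed between the single siRNAs. It had 78.2 FPKM with the SP1 siRNA, 43.8 FPKM with the SP3 siRNA and 63.5 FPKM with both, against 65.1 and 68.0 FPKM in the controls. The SP1 siRNA value lay above both controls, the SP3 siRNA value below both, and the double knockdown just below them. With the SP3 siRNA it fell to 65.8% of the control mean (0.658-fold, interval 0.622 to 0.697), a log2 difference of -0.59 ± 0.06 SE (limma adjusted p = 1.26e-06). The SP1 siRNA gave 1.18-fold (1.12 to 1.23), a log2 difference of 0.23 ± 0.06 SE (adjusted p = 0.00526), which did not pass with median-ratio scaling (0.18, adjusted p = 0.05004), without the filter on low values (adjusted p = 0.0798), without the variance trend (0.0558) or in an additive model, which takes departures from the sum of the single effects as spread (0.102). In the double knockdown the difference was -0.07 ± 0.06 SE (adjusted p = 0.387). Set directly against the SP1 siRNA library, HDAC3 was lower with the SP3 siRNA by a log2 difference of -0.82 ± 0.07 SE (adjusted p = 1.97e-07).

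HDAC8, the class I enzyme that works outside the large complexes and deacetylates cohesin, was measured with few reads (155 to 227 per library). It had 3.79 FPKM with the SP1 siRNA, 2.49 FPKM with the SP3 siRNA and 3.16 FPKM with both, against 3.04 and 3.57 FPKM in the controls. The SP1 siRNA value lay above both controls, the SP3 siRNA value below both, and the double knockdown between them. It fell with the SP3 siRNA by 0.30 ± 0.12 SE on the log2 scale (limma adjusted p = 0.0431), a call lost with median-ratio scaling (adjusted p = 0.0627), in limma-voom on the recovered reads (adjusted p = 0.0561), without the filter (0.231) and in the additive model (0.177). The differences with the SP1 siRNA (0.16 ± 0.12 SE) and with both (-0.05 ± 0.12 SE) did not pass (adjusted p = 0.266 and 0.760).

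**Figure D2:**
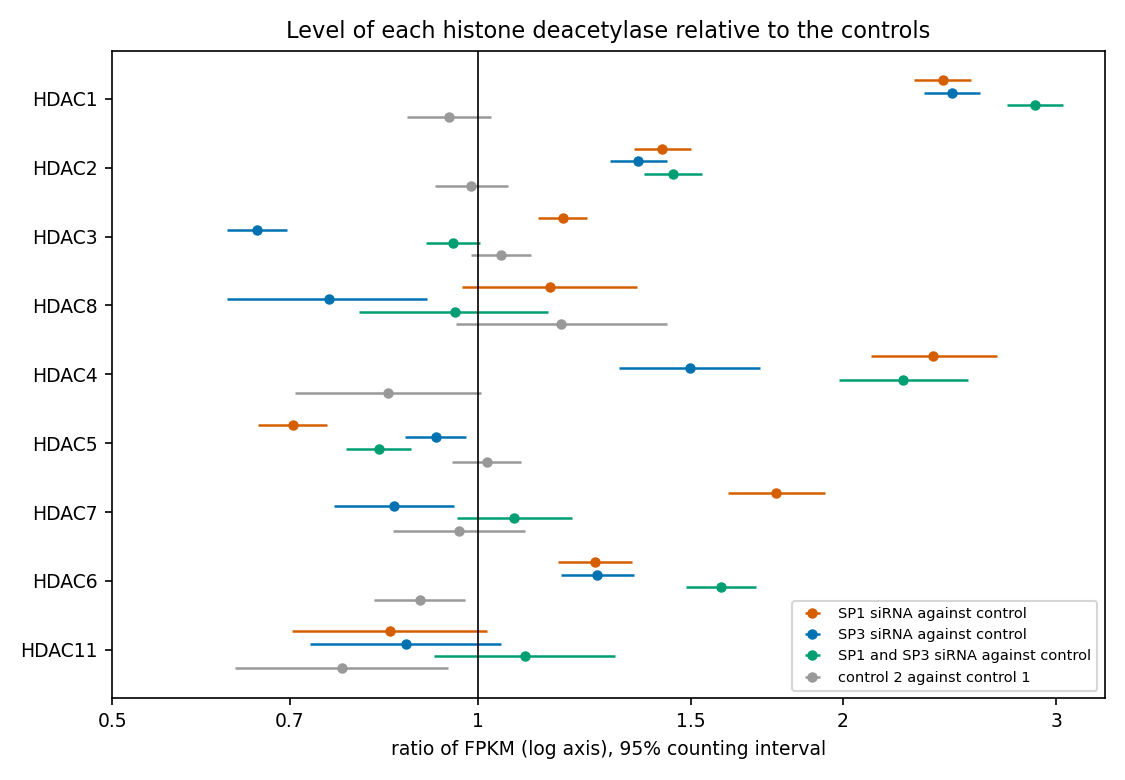
Ratio of each HDAC level to the control mean (log axis) with the SP1 siRNA, the SP3 siRNA and both, and the ratio of control 2 to control 1, each with its exact 95% counting interval. HDAC1 lies at 2.42, 2.46 and 2.88, and HDAC3 lies at 1.18 with the SP1 siRNA and 0.658 with the SP3 siRNA.

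Promoter sequence is shown for HDAC1, HDAC2, HDAC3 and HDAC7, members with called differences chosen after their values were seen. The sequences are the 250 bases before the RefSeq start of each gene, given 5′ to 3′ on the gene's strand (build GRCh38.p14), and the capitals mark GGGCGG, the core of the GC box that SP factors bind, on either strand, run together where matches overlap. For the deposited tables the build is not stated. HDAC1 lies on the plus strand (chr1:32291833-32292082), and HDAC2 (chr6:113971149-113971398), HDAC3 (chr5:141636850-141637099) and HDAC7 (chr12:47819904-47820153) lie on the minus strand.
HDAC1: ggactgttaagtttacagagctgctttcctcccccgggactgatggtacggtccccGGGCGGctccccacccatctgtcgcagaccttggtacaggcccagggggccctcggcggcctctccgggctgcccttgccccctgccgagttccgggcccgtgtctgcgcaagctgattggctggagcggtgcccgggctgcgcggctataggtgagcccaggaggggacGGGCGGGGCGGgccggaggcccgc
HDAC2: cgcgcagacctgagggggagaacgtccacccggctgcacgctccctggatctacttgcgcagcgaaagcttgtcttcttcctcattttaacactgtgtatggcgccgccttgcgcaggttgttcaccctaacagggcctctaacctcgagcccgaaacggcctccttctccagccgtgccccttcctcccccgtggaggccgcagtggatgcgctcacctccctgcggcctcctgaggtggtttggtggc
HDAC3: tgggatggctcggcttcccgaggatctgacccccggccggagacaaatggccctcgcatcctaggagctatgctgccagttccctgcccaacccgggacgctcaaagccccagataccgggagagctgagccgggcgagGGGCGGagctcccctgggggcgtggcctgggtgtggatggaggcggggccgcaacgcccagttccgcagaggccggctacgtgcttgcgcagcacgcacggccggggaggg
HDAC7: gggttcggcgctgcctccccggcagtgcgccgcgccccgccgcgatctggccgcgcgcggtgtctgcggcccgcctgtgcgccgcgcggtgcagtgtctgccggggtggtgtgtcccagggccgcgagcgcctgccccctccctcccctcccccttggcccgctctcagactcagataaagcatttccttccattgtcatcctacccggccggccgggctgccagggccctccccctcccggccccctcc
The HDAC1 stretch held 3 matches, the HDAC3 stretch held 1, and those of HDAC2 and HDAC7 held 0. RefSeq promoter windows were found for 8 of the 9 members, all but HDAC5, 14 windows in all since HDAC4 and HDAC6 have several starts. In the same 250 bases HDAC11 held 5 matches, the starts of HDAC6 held 2, 1 and 3, HDAC4 held 1 at a single start and 0 at the others, and HDAC8 held 0. Of 35116 RefSeq windows, 42.6% held GGGCGG in these 250 bases and 13.9% held it at least 3 times. The stricter GGGGCGGGG was found in HDAC11 alone among the members (2 matches), against 15.1% of windows. The GT box core CACCC, on either strand, was found once each in HDAC1, HDAC3 and HDAC7 and 2 times in HDAC2, against 54.7% of windows with at least 1. These matches are a description of the letters and say nothing of binding in these cells.

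Among the class IIa enzymes, HDAC4 had the largest ratio. It had 1.23 FPKM with the SP1 siRNA, 0.772 FPKM with the SP3 siRNA and 1.16 FPKM with both, against 0.560 and 0.472 FPKM in the controls. All 3 knockdown values lay above both controls, with 594, 389 and 536 reads, against 277 and 237. The ratios were 2.38 (2.11 to 2.68), 1.496 (1.31 to 1.71) and 2.24 (1.98 to 2.54). HDAC4 was under 1 FPKM in both controls and entered the test only through the SP1 and double knockdown libraries, where it was high, so its tests are conditioned on that difference. On the log2(FPKM + 1) scale, which understates the change of so low a gene, the difference was 0.55 ± 0.14 SE with the SP1 siRNA and 0.51 ± 0.14 SE with both (limma adjusted p = 0.00250 and 0.00473). Without any filter on low values, where HDAC4 needs no high library to be tested, the first stood at adjusted p = 0.0496 and the second did not pass (adjusted p = 0.0575). The difference of 0.23 ± 0.14 SE with the SP3 siRNA did not pass there (adjusted p = 0.169) and did in limma-voom on the recovered reads, at 0.59 (adjusted p = 9.48e-05).

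HDAC5, a class IIa enzyme abundant in these cells, was the member that fell with the SP1 siRNA. It had 14.4 FPKM with the SP1 siRNA, 18.9 FPKM with the SP3 siRNA and 17.0 FPKM with both, against 20.3 and 20.6 FPKM in the controls, so every knockdown value lay below both controls. The ratios were 0.704 (0.660 to 0.751), 0.924 (0.872 to 0.978) and 0.829 (0.779 to 0.882). Falls of -0.48 ± 0.08 SE with the SP1 siRNA and -0.26 ± 0.08 SE with both passed (limma adjusted p = 6.92e-05 and 0.00960, the second 0.0586 without the filter), and the -0.11 ± 0.08 SE with the SP3 siRNA did not (adjusted p = 0.237).

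HDAC7, the class IIa enzyme best known from endothelium and thymocytes, was high in a single library. It had 9.38 FPKM with the SP1 siRNA, 4.55 FPKM with the SP3 siRNA and 5.71 FPKM with both, against 5.42 and 5.23 FPKM in the controls. The SP3 siRNA value lay below both controls and the double knockdown just above them. Its ratio was 1.76 (1.61 to 1.93) with the SP1 siRNA, where it rose by 0.72 ± 0.10 SE on the log2 scale (limma adjusted p = 1.86e-05). With the SP3 siRNA (-0.19 ± 0.10 SE) and with both (0.09 ± 0.10 SE) it did not pass (adjusted p = 0.118 and 0.479). Set directly against the SP1 siRNA library, HDAC7 was lower with the SP3 siRNA (-0.90 ± 0.12 SE, adjusted p = 8.85e-06) and with both siRNAs (-0.63 ± 0.12 SE, adjusted p = 0.000481).

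HDAC6, the tubulin deacetylase, was higher in every knockdown library. It had 13.7 FPKM with either siRNA alone and 17.4 FPKM with both, against 11.5 and 10.3 FPKM in the controls, with no overlap. The ratios were 1.249 (1.16 to 1.34) with the SP1 siRNA, 1.255 (1.17 to 1.35) with the SP3 siRNA and 1.59 (1.48 to 1.70) with both, and the log2 differences were 0.30, 0.30 and 0.62, each ± 0.09 SE (limma adjusted p = 0.00845, 0.00807 and 2.27e-05). All 3 calls of HDAC6 were lost without the filter (adjusted p = 0.149, 0.161 and 0.0696), and those of the single siRNAs in the additive model too (0.119 and 0.107). The controls themselves differed here beyond counting error, at a ratio of 0.896 (0.821 to 0.977). HDAC11, also a defatty-acylase, had 2.24 FPKM with the SP1 siRNA, 2.31 FPKM with the SP3 siRNA and 2.90 FPKM with both, against 2.99 and 2.31 FPKM in the controls. The SP1 siRNA value lay just below both controls and the others lay between them. The controls differed by more than counting error (ratio 0.772, interval 0.631 to 0.945), and no difference of HDAC11 passed (limma log2 differences of -0.16, -0.13 and 0.10, each ± 0.13 SE, adjusted p = 0.293, 0.401 and 0.528).

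Counted over the family, 6 members rose and 1 fell with the SP1 siRNA (77.8% called), beside 65.4% of all 11728 tested genes called in that comparison (36.5% higher and 28.8% lower). With the SP3 siRNA 3 rose and 2 fell (55.6%, beside 61.6% of all genes, 29.6% higher and 32.1% lower), and with both 4 rose and 1 fell (55.6%, beside 63.0% of all genes, 31.9% higher and 31.1% lower). For 9 members, the called shares are near those of all genes. The 6 rises of 9 with the SP1 siRNA stand above the 36.5% of all genes that were higher, and no test of the set was run. Without the filter, 5, 3 and 2 of the 9 members were called, beside 4180, 2106 and 3157 of 17125 genes. All 9 members passed the filter of at least 1 FPKM in at least 1 library, HDAC4 through the SP1 and double knockdown libraries alone. Over the 8 members other than HDAC4, 5 rose and 1 fell with the SP1 siRNA, 3 rose and 2 fell with the SP3 siRNA, and 3 rose and 1 fell with both. The median log2 difference of the members was 0.30 with the SP1 siRNA, -0.11 with the SP3 siRNA and 0.10 with both, against 0.06, -0.02 and 0.01 over all tested genes.

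In GENCODE 29, 6 members (HDAC2, HDAC3, HDAC4, HDAC5, HDAC7 and HDAC11) overlap genes on the opposite strand. Where counting did not use strand, which the sources used here do not say, reads within those overlaps cannot be told apart. The overlaps were taken over whole gene spans, introns included. They run from 32 bases (SLC48A1 over HDAC7) to 41608 bases (HDAC2-AS2 over HDAC2). HDAC1 has 2 pseudogene copies. HDAC8 is overlapped on its own strand by AL133500.1, annotated as protein coding, so the reads of that pair may be shared whether or not strand was used. The test rests on 1 residual degree of freedom from the 2 controls and 13.98 prior ones pooled over genes, with no replicate on the knockdown side. In an additive model, where the departure of the double knockdown from the sum of the singles counts as spread, no member passed for either single siRNA (limma adjusted p at least 0.0716 with the SP1 siRNA and 0.0554 with the SP3 siRNA, with 6 and 4 members at an unadjusted p under 0.05), and HDAC1 (1.64) and HDAC6 (0.62) passed for both siRNAs (adjusted p = 0.0343 and 0.0452).

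**Figure D3:**
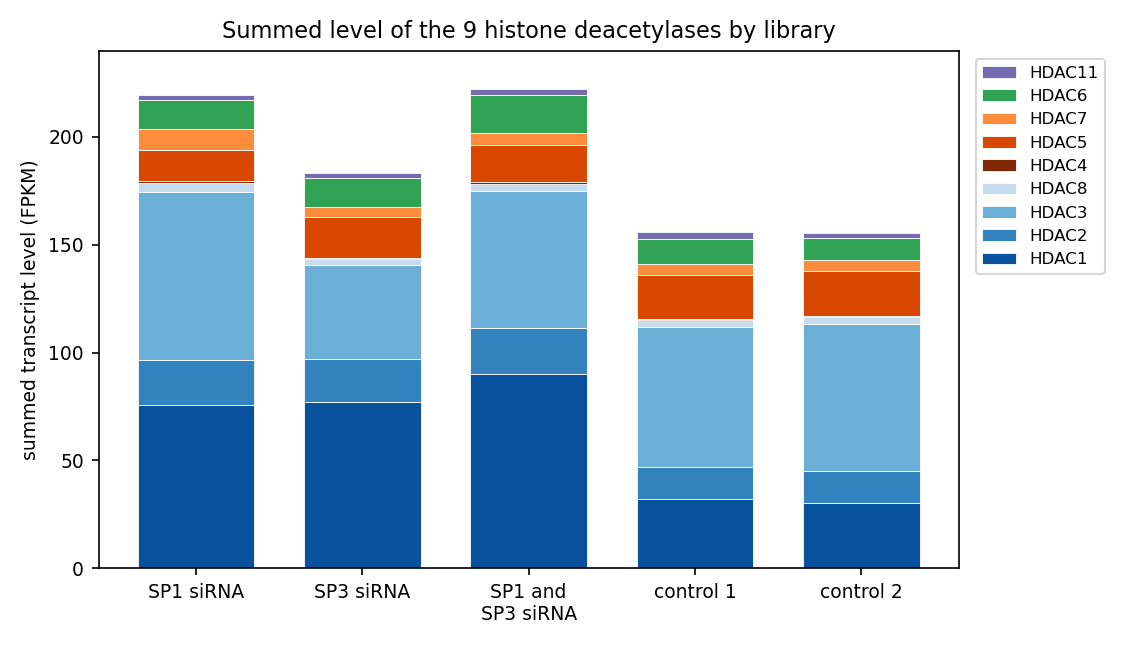
Summed level of the 9 HDAC transcripts in each library (FPKM, axis from 0), with the knockdowns on the left and the controls on the right, and 1 coloured segment per gene. The sum is 219, 183 and 222 FPKM in the SP1, SP3 and double knockdown libraries and 156 FPKM in each control, and the HDAC1 segment is taller in each knockdown.

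The makeup of the family's transcripts shifted towards HDAC1. The 9 members summed to 219 FPKM with the SP1 siRNA, 183 FPKM with the SP3 siRNA and 222 FPKM with both, against 156 and 156 FPKM in the controls. HDAC1 made up 34.5%, 42.0% and 40.6% of that sum in the SP1, SP3 and double knockdown libraries, against 20.6% and 19.6% in the controls. The share of HDAC3 was 35.6%, 23.9% and 28.6%, against 41.8% and 43.7%, and that of HDAC5 was 6.56%, 10.3% and 7.63%, against 13.0% and 13.3%. HDAC2 kept a share of 9.49%, 10.9% and 9.57%, against 9.47% and 9.37%. Summed by class, class I transcripts stood at 178, 143 and 178 FPKM, against 115 and 117 FPKM, and class IIa transcripts at 25, 24.2 and 23.8 FPKM, against 26.2 and 26.3 FPKM, so the class IIa sum moved little while HDAC5 and HDAC7 differed in opposite directions with the SP1 siRNA.

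Comparisons between knockdowns set 1 library against 1, with the spread taken from the controls. Against the SP1 siRNA alone, the double knockdown had more HDAC1 (1.19-fold, 1.13 to 1.254, log2 difference 0.25 ± 0.08 SE) and more HDAC6 (1.27-fold, 0.32 ± 0.10 SE), and less HDAC3 (0.812-fold, -0.30 ± 0.07 SE) and HDAC7 (0.609-fold). These 4 of 9 members passed (limma adjusted p at most 0.01825), beside 47.5% of all genes (21.0% higher and 26.4% lower). Against the SP3 siRNA alone, HDAC1 (1.17-fold, 0.23 ± 0.08 SE), HDAC3 (1.45-fold, 0.53 ± 0.07 SE) and HDAC6 (1.26-fold, 0.32 ± 0.10 SE) were higher (adjusted p at most 0.0329), 3 of 9 beside 33.0% of all genes (17.9% higher and 15.1% lower). Without the filter no member passed in either comparison (adjusted p at least 0.0843 and 0.144, with 3 and 1 members at an unadjusted p under 0.05). That fit called 0 of 17125 genes in each, so it cannot single out the members. No member passed in the additive model either (at least 0.0554 and 0.0716). Without the variance trend, the calls left were HDAC7 against the SP1 siRNA and HDAC3 against the SP3 siRNA, and with median-ratio scaling HDAC1 and HDAC6 did not pass against the SP3 siRNA (adjusted p = 0.0761 and 0.0557). Between the single knockdowns, HDAC5 was higher (0.37 ± 0.09 SE) and HDAC3, HDAC7 and HDAC8 (-0.46 ± 0.14 SE) were lower with the SP3 siRNA than with the SP1 siRNA (adjusted p at most 0.0102), beside 62.7% of all genes (26.5% higher and 36.2% lower). Without the filter the differences of HDAC3 and HDAC7 passed, and in the additive model that of HDAC3 alone. HDAC1 (0.02 ± 0.08 SE), HDAC2 (-0.06 ± 0.09 SE) and HDAC6 (0.01 ± 0.10 SE) did not pass between the singles, and their SP3 to SP1 siRNA ratios were 1.02 (0.967 to 1.07), 0.955 (0.9004 to 1.014) and 1.004 (0.929 to 1.09).

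**Figure D4:**
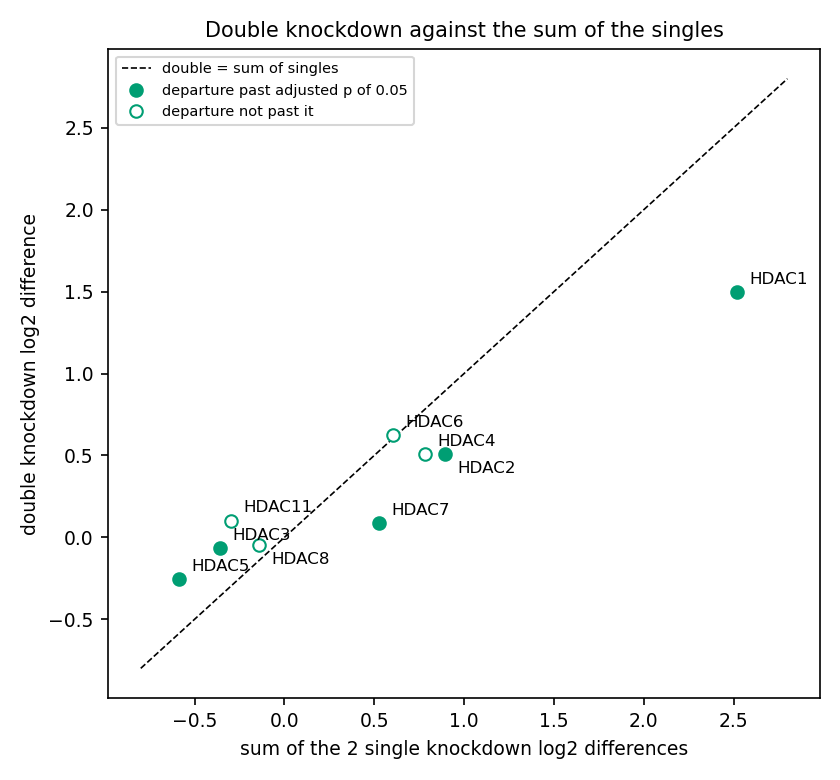
Log2 difference of each HDAC member in the double knockdown (vertical axis) against the sum of its single knockdown differences (horizontal axis), both relative to the controls, with a dashed line where they are equal and filled points where the departure passed the limma threshold. HDAC1 lies at 1.498 against a sum of 2.52, and HDAC6 lies at 0.62 against 0.60, close to the line.

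The double knockdown was compared with the sum of the single differences by an interaction term, which passed for 5 of 9 members, beside 39.5% of all genes (18.5% higher and 21.0% lower). HDAC1 fell short of its sum, at 1.498 against 2.52 (departure -1.02 ± 0.10 SE, limma adjusted p = 2.07e-06). HDAC2 did so too, at 0.51 against 0.89 (-0.39 ± 0.12 SE, adjusted p = 0.0174), and so did HDAC7, at 0.09 against 0.53 (-0.44 ± 0.16 SE, adjusted p = 0.0349). For HDAC3 (-0.07 against -0.36, departure 0.30 ± 0.10 SE, adjusted p = 0.0257) and HDAC5 (-0.26 against -0.59, departure 0.33 ± 0.12 SE, adjusted p = 0.0378) the double knockdown lay above the sum. Without the variance trend the departures of HDAC2, HDAC3 and HDAC5 did not pass (adjusted p = 0.0608, 0.132 and 0.0943). Without the filter no member's did (adjusted p at least 0.112, with 5 members at an unadjusted p under 0.05). There the term passed for 0 of 17125 genes, so that fit cannot single out the members. HDAC6 stood at 0.62 against 0.60 (departure 0.02 ± 0.14 SE, adjusted p = 0.927). The knockdown itself was not additive in depth, since SP1 departed by 0.43 ± 0.11 SE (adjusted p = 0.00627), its level being 27.5 FPKM with the SP3 siRNA alone.

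Genes whose 3 differences against control lay nearest to those of a member were sought among 7127 genes averaging 5 FPKM or more, for HDAC1 and HDAC7, the members with the largest differences on the log2(FPKM + 1) scale. That choice depends on the scale, since with a pseudocount of 0.1 HDAC4 (1.11 with the SP1 siRNA) stood above HDAC7 (0.81). Nearest to HDAC1 were AES (Euclidean distance 0.104 on the log2 scale), a Groucho-family corepressor, PERP (0.105), a desmosome protein, and PPP3CB (0.131), a calcineurin catalytic subunit. AES had 87.8, 88.9 and 103 FPKM in the SP1, SP3 and double knockdown libraries, against 36.2 and 33.1 FPKM in the controls. Nearest to HDAC7 were ADCY3 (0.0378), an adenylate cyclase, AKT1S1 (0.0711) and CHCHD3 (0.0910). ADCY3 had 10.75, 5.367 and 6.515 FPKM, against 6.185 and 6.308 FPKM in the controls.

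The partner subunits of the class I complexes went both ways. Of 43 tested subunits of Sin3, NuRD, CoREST, NCoR and the mitotic complex MiDAC, 15 rose and 12 fell with the SP1 siRNA (62.8% called), 15 rose and 11 fell with the SP3 siRNA (60.5%), and 18 rose and 14 fell with both (74.4%), close to the shares of all genes except for the last, which stands beside 63.0%. Their median log2 differences were 0.12, 0.06 and 0.115, against 0.06, -0.02 and 0.01 over all tested genes. The histone chaperones RBBP4 and RBBP7, which sit beside HDAC1 and HDAC2 in both Sin3 and NuRD, rose in all 3 comparisons. RBBP7 had 49.7, 60.2 and 69.1 FPKM with the SP1 siRNA, the SP3 siRNA and both, against 38.0 and 40.6 FPKM in the controls (log2 differences 0.33, 0.60 and 0.80, each ± 0.07 SE). RBBP4 had 18.7, 22.9 and 27.4 FPKM, against 15.7 and 14.7 FPKM (0.29, 0.56 and 0.82, each ± 0.08 SE).

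In the Sin3 list, 4 of 15 rose and 2 fell with the SP1 siRNA, 6 rose and 2 fell with the SP3 siRNA, and 7 rose and 1 fell with both. These shares of 40.0%, 53.3% and 53.3% lay below the 65.4%, 61.6% and 63.0% of all genes called. The scaffold SIN3A fell with the SP3 siRNA, to 10.8 FPKM against 15.1 and 14.5 FPKM in the controls (-0.42 ± 0.08 SE, limma adjusted p = 0.000460). It fell with both too, to 11.5 FPKM (-0.34 ± 0.08 SE, adjusted p = 0.00236), and did not pass with the SP1 siRNA (0.03 ± 0.08 SE, adjusted p = 0.799). In the NuRD list, 6 of 12 rose and 2 fell, 5 rose and 3 fell, and 6 rose and 5 fell in the same order (66.7%, 66.7% and 91.7% called). MTA1, a metastasis-associated NuRD subunit, rose to 28.0, 19.3 and 17.0 FPKM with the SP1 siRNA, the SP3 siRNA and both, against 12.4 and 12.5 FPKM (1.11, 0.59 and 0.42, each ± 0.08 SE, adjusted p = 1.12e-08, 1.08e-05 and 0.000253). Its paralogue MTA2 fell with the SP1 siRNA to 24.6 FPKM, against 35.5 and 37.2 FPKM (-0.54 ± 0.07 SE, adjusted p = 7.59e-06). MTA2 fell with both too (-0.29 ± 0.07 SE) and did not pass with the SP3 siRNA (0.01 ± 0.07 SE, adjusted p = 0.874). GATAD2A, a bridge between the deacetylase and remodeller sides of NuRD, rose with the SP3 siRNA to 25.5 FPKM, against 11.6 and 12.5 FPKM (1.02 ± 0.08 SE, adjusted p = 5.59e-08). It rose with both too, to 21.2 FPKM (0.76 ± 0.08 SE, adjusted p = 1.14e-06), and did not pass with the SP1 siRNA (0.16 ± 0.08 SE, adjusted p = 0.0916).

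The CoREST list had 5 rises and 4 falls of 10 with the SP1 siRNA, 3 and 2 with the SP3 siRNA, and 4 and 3 with both (beside 65.4%, 61.6% and 63.0% of all genes called). KDM1A, the histone demethylase of this complex, fell to 26.5, 18.8 and 21.5 FPKM with the SP1 siRNA, the SP3 siRNA and both, against 36.4 and 36.6 FPKM in the controls (-0.45, -0.92 and -0.74, each ± 0.07 SE, limma adjusted p = 6.23e-05, 3.66e-08 and 3.62e-07). HMG20B, a DNA-binding subunit, rose in each comparison, to 88.2, 91.0 and 111 FPKM with the SP1 siRNA, the SP3 siRNA and both, against 49.5 and 47.6 FPKM (0.85, 0.89 and 1.18, each ± 0.06 SE). Of the CoREST scaffolds, RCOR2 stood at 1.75, 1.37 and 1.02 FPKM, against 4.38 and 4.59 FPKM (-0.996, -1.21 and -1.44, each ± 0.12 SE, adjusted p at most 4.08e-06). The other scaffolds did not follow it. RCOR1 stood at 9.43, 15.3 and 13.9 FPKM, against 16.5 and 14.2 FPKM, and passed with the SP1 siRNA alone (-0.64, 0.001 and -0.13, each ± 0.09 SE). RCOR3 too passed with the SP1 siRNA alone, as a rise (0.26 ± 0.11 SE, adjusted p = 0.0487).

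For the partners of HDAC3, the NCoR list of 5 had 2 rises and 2 falls with each single siRNA and 2 and 3 with both. These were 80%, 80% and 100% called, beside 65.4%, 61.6% and 63.0% of all genes. CORO2A, a coronin found in that complex, fell to 2.14, 3.26 and 2.19 FPKM in the SP1, SP3 and double knockdown libraries, against 5.34 and 5.85 FPKM in the controls (-1.07, -0.63 and -1.05, each ± 0.12 SE, limma adjusted p at most 0.000235). TBL1XR1, an exchange factor of that complex, rose with the SP1 siRNA to 23.3 FPKM (0.36 ± 0.08 SE) and fell with the SP3 siRNA to 11.7 FPKM (-0.58 ± 0.08 SE), against 17.8 and 18.1 FPKM. Of 3 tested MiDAC members, 0 rose and 2 fell with the SP1 siRNA, and 1 rose and 2 fell in each other comparison with the controls. Their called shares were 66.7%, 100% and 100%, beside the same shares of all genes. DNTTIP1 rose to 72.03 FPKM with the SP3 siRNA and 78.6 FPKM with both, against 42.5 and 42.7 FPKM (0.75 and 0.87, each ± 0.06 SE).

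Of 19 tested partners of the class IIa enzymes, 7 rose and 6 fell with the SP1 siRNA, 9 rose and 4 fell with the SP3 siRNA, and 6 rose and 6 fell with both. Their called shares of 68.4%, 68.4% and 63.2% were near the 65.4%, 61.6% and 63.0% of all genes. The median log2 differences of that list were -0.02, 0.18 and -0.07, against 0.06, -0.02 and 0.01 over all genes. The 14-3-3 proteins, which hold these enzymes in the cytoplasm, differed from each other. YWHAZ fell with the SP1 siRNA to 103 FPKM, against 329 and 325 FPKM in the controls (-1.66 ± 0.05 SE, limma adjusted p = 4.79e-12). It fell with both to 149 FPKM (-1.13 ± 0.05 SE) and rose with the SP3 siRNA to 393 FPKM (0.26 ± 0.05 SE, adjusted p = 0.000688). YWHAE rose to 264, 338 and 415 FPKM in the SP1, SP3 and double knockdown libraries, against 187 and 177 FPKM (0.53, 0.89 and 1.18, each ± 0.06 SE). SFN, the epithelial 14-3-3 sigma, rose with the SP3 siRNA to 1212 FPKM, against 288 and 284 FPKM (2.08 ± 0.05 SE, adjusted p = 9.39e-13). It rose less with both, to 771 FPKM (1.43 ± 0.05 SE), and with the SP1 siRNA, to 335 FPKM (0.23 ± 0.05 SE). SIK2, a kinase of class IIa enzymes, fell with the SP3 siRNA to 1.75 FPKM and with both to 2.14 FPKM, against 6.03 and 6.13 FPKM (-1.37 and -1.17, each ± 0.11 SE). It did not pass with the SP1 siRNA (-0.17 ± 0.11 SE). Their target MEF2D fell with the SP1 siRNA to 14.8 FPKM and with both to 17.6 FPKM, against 22.1 and 22.7 FPKM (-0.56 and -0.33, each ± 0.08 SE). MEF2D did not pass with the SP3 siRNA (0.18 ± 0.08 SE, adjusted p = 0.0506).

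**Figure D5:**
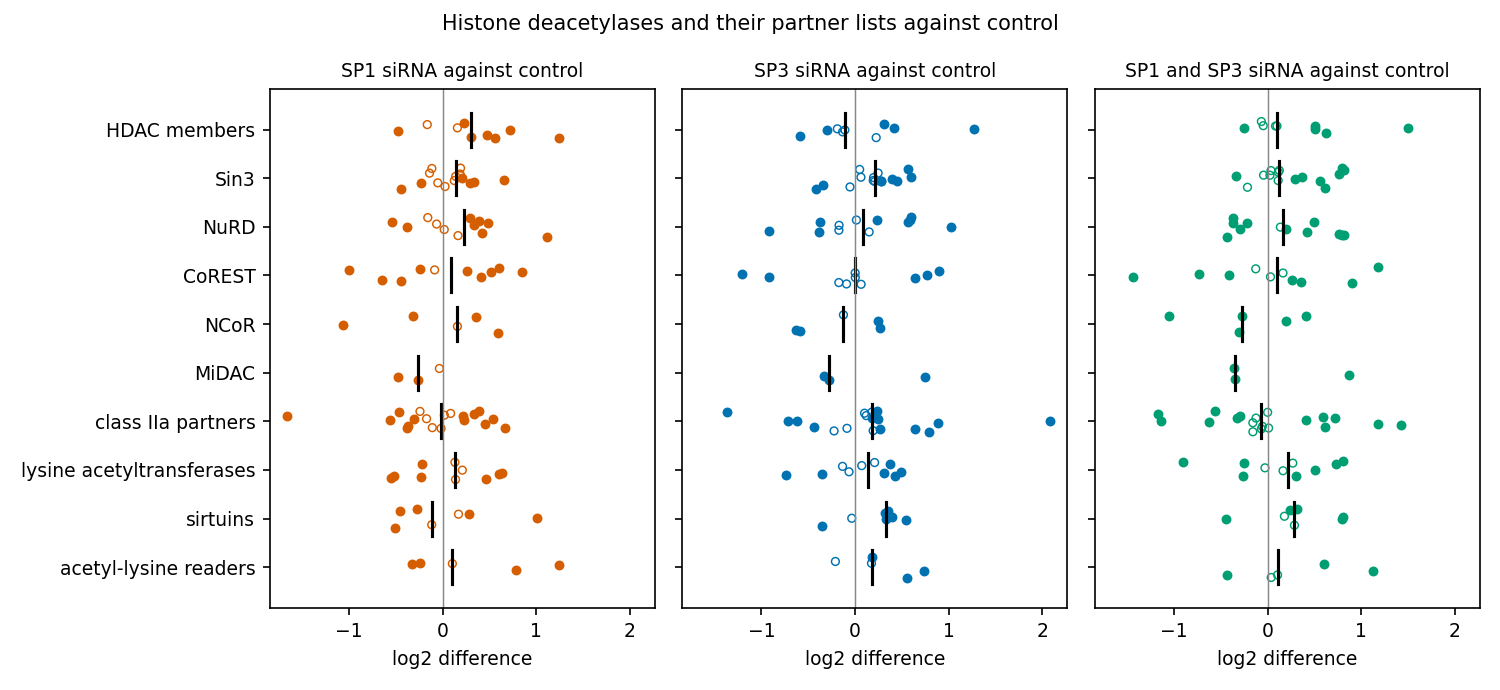
Log2 differences of the HDAC members and of each partner list against the controls, 1 panel per knockdown, with 1 point per gene, filled where the limma adjusted p was under 0.05, and a black bar at the list median. Of the pooled class I subunits 15, 15 and 18 rose and 12, 11 and 14 fell, and HDAC1 is the rightmost member at 1.247, 1.272 and 1.498.

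Enzymes and readers with the opposite or parallel task were mixed as well. Beside the counts that follow, 65.4% of all genes were called with the SP1 siRNA (36.5% higher and 28.8% lower), 61.6% with the SP3 siRNA (29.6% and 32.1%) and 63.0% with both (31.9% and 31.1%), with medians of 0.06, -0.02 and 0.01. Of 10 lysine acetyltransferases, which add the mark that HDACs remove, 3 rose and 4 fell with the SP1 siRNA, 4 rose and 2 fell with the SP3 siRNA, and 4 rose and 3 fell with both, with median log2 differences of 0.135, 0.14 and 0.22. KAT2A, of the SAGA and ATAC complexes, rose to 25.4, 21.8 and 23.1 FPKM, against 15.8 and 16.3 FPKM in the controls (0.63, 0.42 and 0.50, each ± 0.08 SE). KAT6A stood at 4.62, 3.83 and 3.31 FPKM, against 7.74 and 6.39 FPKM (-0.52, -0.74 and -0.90, each ± 0.12 SE). Of 7 sirtuins, the NAD-dependent deacetylases of another fold, 2 rose and 3 fell with the SP1 siRNA, 5 rose and 1 fell with the SP3 siRNA, and 4 rose and 1 fell with both (medians -0.12, 0.33 and 0.29). SIRT7, a nucleolar enzyme, fell with the SP1 siRNA to 16.5 FPKM and rose with the SP3 siRNA to 31.8 FPKM, against 22.9 and 24.9 FPKM (-0.51 and 0.40, each ± 0.08 SE). Of 5 bromodomain readers of acetyl-lysine, 2 rose and 2 fell, 3 rose and 0 fell, and 2 rose and 1 fell in the same order (medians 0.104, 0.185 and 0.107). BRD7 rose to 22.7, 15.6 and 20.9 FPKM, against 9.20 and 8.84 FPKM (1.24, 0.73 and 1.13, each ± 0.08 SE).

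CDKN1A, the p21 cell cycle inhibitor, is the classic gene at which SP1 recruits HDAC1 to an upstream GC-rich promoter. It stood at 200 FPKM with the SP1 siRNA, 198 FPKM with the SP3 siRNA and 92.3 FPKM with both, against 343 and 329 FPKM in the controls. All knockdown values lay below both controls, and the double knockdown was lowest. The log2 differences were -0.74, -0.76 and -1.85, each ± 0.06 SE (limma adjusted p = 2.55e-08, 2.34e-08 and 2.48e-12), and all 3 passed in the additive model too, though without control 2 the SP1 siRNA difference did not (adjusted p = 0.0583). Over the partners and targets named by rule, the additive model ended the call for 69 of 108 differences against control. Leaving out control 1 or control 2 in that model ended 91 and 100 of them and turned the sign of 2 and 1 more, and testing without the filter ended 49. A pseudocount of 0.1 ended 0, median-ratio scaling 1, the fit without a variance trend 3 and limma-voom on the recovered reads 1.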

How the data were processed

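Transcript levels were taken from 5 tables, 1 per library, of FPKM values deposited by the authors for 20030 symbols. Per the submitters' processing notes, which give no role or order, the tools included HISAT2 2.0.5, HTSeq 0.9.1, Trimmomatic 0.36 and Cufflinks 2.2.1. Build, annotation and use of strand were not stated there. Since the values are FPKM, differences were tested with limma 3.58.1 under R 4.3.3 (moderated by empirical Bayes along a mean trend) on log2(FPKM + 1), over the 11728 genes that reached 1 FPKM in any library, with 1 mean per group and Benjamini-Hochberg adjustment (threshold 0.05). The fit was tested on simulated data. Because only the controls are replicated, p-values rest on the spread between those 2 libraries, which may be technical. For each gene that spread was mostly the one pooled over genes, with 13.98 prior degrees of freedom beside 1 residual. Without the filter the prior degrees of freedom were 1.028.

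Reads were read back from the FPKM steps, as the smallest length that gives whole reads (tolerance 0.02) in every library, which was found for 17125 of 17125 genes above 0. They gave the 95% intervals (exact Poisson for levels, exact conditional binomial for ratios) and are a lower limit. Of 12904 genes with at least 20 reads in the controls, 18.1% differed between the controls beyond counting error.

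The members and lists were chosen with earlier results of these data known; 2 genes of these lists are not reported here. Named partners are up to 4 per list and comparison with the smallest p past the threshold; nearest patterns were sought for the 2 members with the largest differences on that log2 scale, and markers for 4 cell types. Alternatives were a pseudocount of 0.1, no filter, a mean of at least 5 FPKM, median-ratio scaling, an additive model, no variance trend, leaving out each control, and limma-voom on the recovered reads. Promoters are RefSeq windows (GRCh38.p14).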

Additional observations from a re-analysis of the deposited data

Results flagged for a closer look

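For 5 of 9 members the limma interaction term (double knockdown minus the sum of the singles, log2 scale) passed, beside 39.5% of all tested genes. In these the double knockdown library departed from the sum of the single differences. A difference shared by all knockdown libraries against the controls also enters this term, and its part was not tested. The departures were -1.02 for HDAC1, -0.39 for HDAC2, 0.30 for HDAC3, 0.33 for HDAC5 and -0.44 for HDAC7. The double knockdown and each single knockdown are 1 library each, so the departure has no replicate on the knockdown side. Without the variance trend those of HDAC2, HDAC3 and HDAC5 did not pass (adjusted p = 0.0608, 0.132 and 0.0943). Without the filter on low values none of the 5 did (adjusted p at least 0.112). In that fit 0 of 17125 genes passed, so it cannot single out these members. SP1 itself departed by 0.43, and its part in these values was not tested.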

How the results depend on the processing

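No paired analysis was possible because only the controls carry more than 1 replicate number and each knockdown group has 1 library. In the additive model the members called numbered 0 with the SP1 siRNA, 0 with the SP3 siRNA and 2 with both against control (6, 4 and 4 at an unadjusted p under 0.05), 0 for both against the SP1 siRNA, 0 for both against the SP3 siRNA (4 and 6 unadjusted) and 1 for the SP3 against the SP1 siRNA. Leaving out either control in that model gave 0 to 0, except 0 to 1 for both siRNAs against control. Over all genes it called 900, 1805 and 1973 against control, where the model with 1 mean per group called 7666, 7225 and 7387. By construction it counts the departure from additivity as spread.

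Without a filter the calls were 3 with the SP3 siRNA, 2 with both, 0 for both against the SP1 siRNA, 0 for both against the SP3 siRNA, 2 for the SP3 against the SP1 siRNA and 0 for the interaction (3, 1 and 5 unadjusted where 0). Over all 17125 genes without the filter, 2106, 3157, 0, 0, 2636 and 0 were called in that order. Where no gene passed, that fit cannot single out members. Without the variance trend the member calls were 1, 1 and 2 for both against the SP1 siRNA, both against the SP3 siRNA and the interaction. That fit called 4946, 2979 and 3882 of 11728 genes there. Median-ratio scaling gave 1 member for both against the SP3 siRNA, beside 3337 genes. The cause was not tested. limma-voom on the recovered reads, chosen after seeing the data, called 7, 5, 5, 5, 4, 5 and 6 members over the 7 comparisons. Over all genes it called 7742, 7389, 7371, 5558, 4103, 7457 and 4697 of 11728. A pseudocount of 0.1 changed no call of the members, and no called difference of a member changed sign under any alternative run; uncalled ones near 0 did, among them HDAC11. Among partners, leaving out a control in the additive model turned the sign of KAT7 with the SP3 siRNA (0.0067) and MTA1 with the SP3 siRNA (-0.052 and -0.044). HDAC8 and HDAC11, with the fewest reads, are limited most by depth.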
